A study of Homo sapiens with 20 samples.

Results

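Sites of accessible chromatin that were called with both activated TAZ and activated YAP, and with none of 5 other vectors, were described in SW872 cells, an established human liposarcoma cell line. The sites were chosen from 7 lists of ATAC-seq peaks, 1 list for each vector, in which a peak marks a stretch of DNA where the transposase cut often enough to pass the threshold of the peak caller. Peaks of all 7 lists that shared at least 1 bp were merged into sites. A site was kept when it held a TAZ4SA peak and a YAP5SA peak and no peak of the empty vector (EV), CAMTA1, TFE3, TAZ-CAMTA1 or YAP-TFE3 lists. This rule gave 3675 of 372133 merged sites, or 0.988% of them. Because the presence of peaks chose the sites, all values of these peaks are given as a description, without a test.

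The 7 lists came from 20 libraries of pooled SW872 cells that stably carried a retroviral vector under G418 selection. EV, TAZ4SA, YAP5SA, CAMTA1, TAZ-CAMTA1 and YAP-TFE3 had 3 libraries each and TFE3 had 2. TAZ4SA and YAP5SA are full-length TAZ and YAP in which the serines phosphorylated by the LATS kinases were replaced by alanines. CAMTA1 and TFE3 are the full-length partners of the fusion proteins TAZ-CAMTA1 and YAP-TFE3, and the library titles of the latter name Yap5SA-TFE3. The third EV library was titled as a redo. The cells kept their own TAZ and YAP genes in every group, and the expressed proteins carried a Flag tag. Each vector had a single list with no values per library, so no spread between replicates could be given, and the number of reads behind a list is unknown. The lists held between 152702 peaks (TAZ4SA) and 236893 peaks (TAZ-CAMTA1), with 230886 for YAP5SA, and a site without a peak in a list is a site where none was called, not one shown to be closed. Genes, promoters and sequence at the sites were not analysed here, because the positions are in the human build hg19 and the annotation at hand was of another build.

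TAZ and YAP are the transcriptional coactivators at the end of the Hippo pathway. When the pathway is on, the LATS kinases phosphorylate both proteins, which are then held in the cytoplasm and degraded. When it is off, TAZ and YAP enter the nucleus and bind DNA through the TEAD transcription factors, often at enhancers far from promoters where AP-1 factors also bind. The alanine forms escape the kinases and are therefore called activated. In the fusion proteins, the N-terminal part of TAZ or YAP, with its TEAD binding domain, is joined to the C-terminal part of another transcription factor.

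Most places that were open with both activated proteins were open with the other vectors as well. Of all 81740 merged sites with a TAZ4SA and a YAP5SA peak, 60372 held a peak of each of the other 5 lists, which is 73.9%. The 3675 sites with no other list were 4.50%. Sites with 1, 2, 3 and 4 of the other lists numbered 3116, 3421, 3973 and 7183, so sites of the 2 activated proteins alone were more frequent than those with exactly 1 or 2 further lists. When exactly 1 further list was present, it was CAMTA1 in 1121 sites, YAP-TFE3 in 854, EV in 585, TAZ-CAMTA1 in 505 and TFE3 in 51. The TAZ4SA and YAP5SA lists thus shared more sites with CAMTA1 alone than with EV alone, and the CAMTA1 list was longer than the EV list, with 223651 against 171102 peaks.

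Seen from each protein, the overlap was partial. Among the 21973 TAZ4SA sites without a peak of the 5 other lists, 16.7% also held a YAP5SA peak (95% Wilson interval 16.2 to 17.2). Among the 42917 such YAP5SA sites, 8.56% held a TAZ4SA peak (8.30 to 8.83). The remaining 18298 TAZ4SA-only and 39242 YAP5SA-only sites were narrow, with median widths of 93 and 98 bp against 224 bp for the shared sites (95% interval of the median 218 to 229). A merged site of 2 peaks can be wider than either of its peaks by construction. Within the shared sites the TAZ4SA peaks had a median width of 115 bp and the YAP5SA peaks of 170 bp. All such intervals cover counting error only, not the spread between libraries.

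Set beside the sites that belonged to exactly 2 lists for each of the 21 possible pairs of lists, the TAZ4SA and YAP5SA sites were the sixth most numerous and had the highest peaks. At each summit, the peak caller gives the evidence for enrichment as −log10 p. Both summits reached 5 or more on this scale in 536 of the 3675 sites, or 14.6% (13.5 to 15.8), whereas the share lay between 0.0% and 2.00% in the other 20 pairs. The pair next to it, the fusions TAZ-CAMTA1 and YAP-TFE3, had 11730 sites of its own. The weaker summit of a TAZ4SA and YAP5SA site had a median −log10 p of 4.12, with the other pairs at 3.68 to 3.96. Its highest value was 9.56, with the other pairs reaching at most 7.24. By the median, the next pairs also held TAZ4SA, with EV (3.96), YAP-TFE3 (3.87) and CAMTA1 (3.86). TAZ4SA with TAZ-CAMTA1 ranked 12th and with TFE3 18th. TAZ4SA was the shortest list, and its lowest summit, 3.38, was above the lowest of every other list. The TAZ4SA and YAP5SA sites were also the widest, with 224 bp against medians of 117.5 to 172 bp in the other pairs. These shares differ between pairs in which the lists differ in length and depth, and no test of the difference could be made with 1 list per vector.

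**Figure D1:**
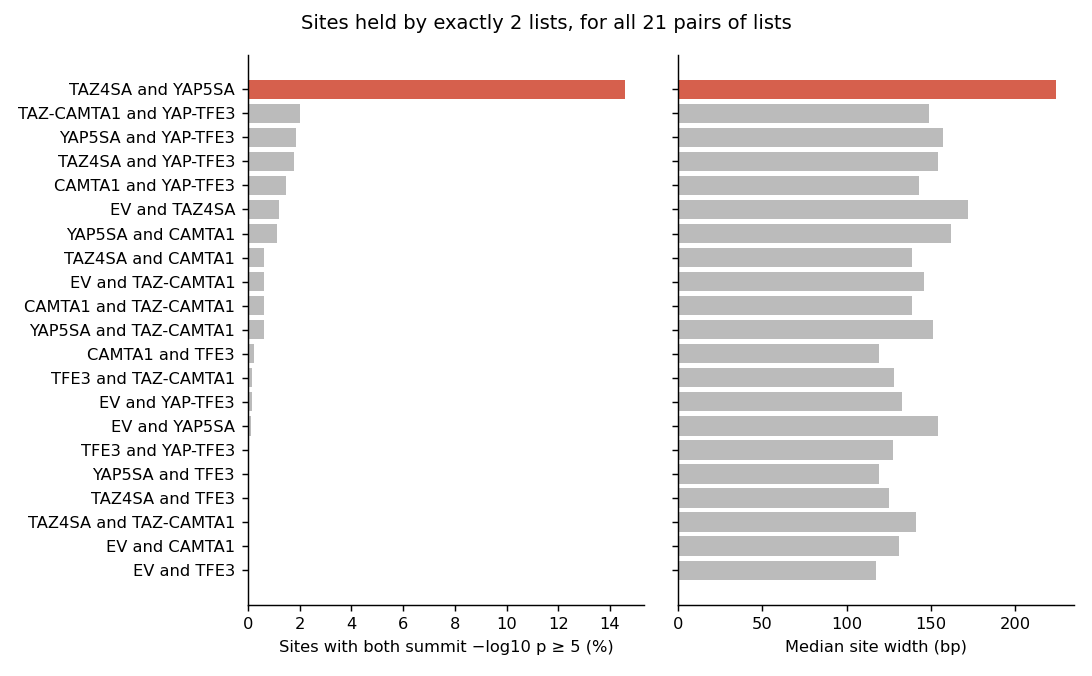
Sites held by exactly 2 of the 7 lists, for each of the 21 pairs. The left bars give the percentage of sites in which both peaks had a summit −log10 p that reached 5 and the right bars the median site width in bp, and the pair of TAZ4SA and YAP5SA (red) stands highest in both, at 14.6% and 224 bp.

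Most of the sites were nevertheless modest openings. Peak strength is given as the area under the curve that the peak caller reported, for which no list went below 20. In the TAZ4SA list the peaks in the sites had a lowest area just above that limit, a median of 53.7 (51.8 to 55.8) and a highest of 3338, with quartiles of 32.6 and 103. In the YAP5SA list the median was 99.9 (93.7 to 108), the quartiles 44.1 and 300.2, and the highest area 4383. The median TAZ4SA peak of the sites stood at the 34.2th percentile of all TAZ4SA peaks by area, and the median YAP5SA peak at the 46.7th percentile of its list. Even the strongest stood at the 95.3th and 94.9th percentiles, so the peaks of largest area in both lists lay in other sites. Summits followed the areas, with a median −log10 p of 4.43 for TAZ4SA, where the highest was 9.74, and of 4.61 for YAP5SA, where the highest was 13.6.

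The YAP5SA peak was usually the larger, although less often than in the sites with both peaks at large. It had the larger area in 2603 of the 3675 sites, or 70.8% (69.3 to 72.3), against 86.1% of all 81740 sites with both peaks. A YAP5SA area at least 2-fold larger was found in 1722 sites, which is 46.9% against 55.5% of all. A TAZ4SA area at least 2-fold larger was found in 404 sites, which is 11.0% against 4.64% of all. The median log2 ratio of YAP5SA to TAZ4SA area was 0.87 in the sites and 1.15 in all sites with both peaks. An area grows with the depth of a list, so the ratio between lists is read against the value for all sites, not against 0.

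Strength in one list was only loosely related to strength in the other. Across the 3675 sites, Spearman's rho between the TAZ4SA and YAP5SA areas was 0.355 and Pearson's r of the log2 areas 0.422, compared with 0.831 and 0.833 across all 81740 sites with both peaks. The sites share the same pair of lists and are not independent replicates, and their areas span a narrower range than those of all sites. The plot of the areas shows a broad cloud in which weak TAZ4SA peaks faced YAP5SA peaks of every size.

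**Figure D2:**
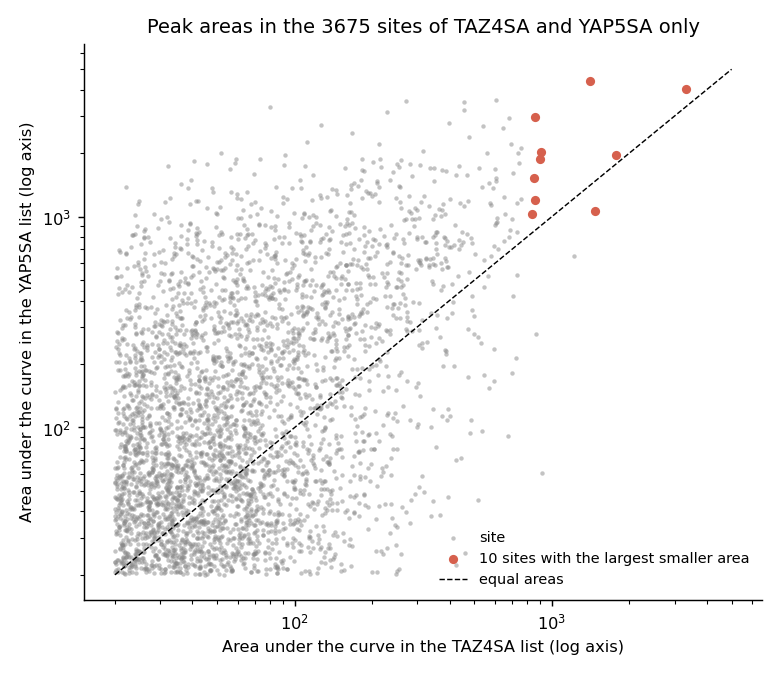
Area under the curve of the TAZ4SA peak (horizontal, log axis) and the YAP5SA peak (vertical, log axis) in each of the 3675 sites, with the 10 sites of largest smaller area in red and equal areas as a dashed line. Most points lie above the line, as do 9 of the 10 red points.

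Inside a site the 2 peaks usually had summits close together, though not closer than in other pairs of lists. Their summits lay a median of 34 bp apart (quartiles 11 and 76), within 50 bp of each other in 62.8% of sites and within 100 bp in 81.6%. The peaks overlapped by at least 50% of both lengths in 53.2% of sites. Among the 21 pairs of lists the median summit distance of 34 bp was the largest, tied with EV and TAZ4SA. In the other 20 pairs it ran from 17 to 34 bp. The median overlap, as a share of the wider peak, was 52.7% here and 52.5% to 68.4% in the other pairs. A single peak of each list made up 3520 of the sites. The others were split mostly on the TAZ4SA side, with 104 sites of 2 TAZ4SA peaks and 1 YAP5SA peak and 43 of the opposite kind. The largest of several peaks of a list was used for the values of such a site. In all, the sites held 3793 TAZ4SA peaks, 2.48% of that list, and 3720 YAP5SA peaks, 1.61% of that list.

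The sites in which both proteins gave a strong peak differed from the rest of the class in width, position and surroundings. The 536 sites with both summits at −log10 p of 5 or more had a median width of 401 bp, compared with 205 bp for the other 3139. Their summits were closer together, with medians of 22 and 35 bp, although bins by the smaller area showed no trend in this distance. They also stood farther from the peaks of the 5 other lists, at a median of 3392.5 bp (2812 to 4276) against 1072 bp (961 to 1192) for the rest. Chromosome 13 held 2.05% of them (1.15 to 3.64) and 7.87% of the rest (6.98 to 8.86). The 536 sites were picked by the summits of the same peaks, so the difference in width may be partly built in. No other class was split by summit beside them, so it is unknown whether strong sites of other classes differ likewise. Of the 3675 sites, 180 reached a −log10 p of 6 in both lists, and 50 had an area of at least 500 in both.

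The 10 strongest sites, ranked by the smaller of the 2 areas, were 553 to 1454 bp wide and lay on 8 chromosomes. The first, at chr18:76610772-76612225, was a single broad peak in each list, with an area of 3338 with TAZ4SA and 4043 with YAP5SA and summit −log10 p values of 9.56 and 10.7. Its nearest peak of another list was a CAMTA1 peak 4221 bp away, and the nearest EV peak lay 10029 bp away. A second site of the same class followed 727 bp from it, and both belonged to a run of sites described further on. No other site came near it in both lists, since the next largest smaller area was 1778.

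The second site, at chr8:77318038-77318808, had nearly equal areas of 1778 with TAZ4SA and 1964 with YAP5SA, and a CAMTA1 peak lay 1349 bp from it. The third, at chr1:112320785-112322093, had the largest YAP5SA area of all the sites, 4383, and a TAZ4SA area of 1413. These 2 sites show the spread among strong members, one even and the other 3.10-fold larger with YAP5SA. The fourth, at chr9:81628556-81629316, was the one of the 10 in which TAZ4SA was larger, with 1467 against 1065, and YAP5SA was called there as 2 separate peaks. The nearest EV peak lay 80500 bp from it, and among the remaining lists a CAMTA1 peak came closest, at 8325 bp.

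The other strong sites had the larger YAP5SA area throughout. At chr20:9292304-9293214 the areas were 911 with TAZ4SA and 2018 with YAP5SA, and the next site of the class lay 117 bp away. At chr7:141950308-141950960 they were 898 and 1877, and a further site followed after 375 bp. At chr11:13782835-13783799 they were 862 and 2980, with another site 666 bp away. Close neighbours of the same class were therefore seen beside several of the strongest sites, each separated from it by a stretch in which no list had a peak joining them.

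The last 3 of the 10 lay farther from the peaks of other lists than the first 7. The site at chr11:39762524-39763208, with areas of 859 with TAZ4SA and 1204 with YAP5SA, had its nearest peak of another list, of YAP-TFE3, 365566 bp away and its nearest site of the same class 925982 bp away. At chr5:93553957-93554509 the areas were 852 and 1529, and the nearest other peak, of YAP-TFE3, lay 18905 bp away. At chr7:147109836-147110677 the areas were 838 and 1035, and the nearest other peak, again of YAP-TFE3, lay 215294 bp away, although another site of the class lay 216 bp from it. Among all 10 the distance to another list ran from 1349 to 365566 bp, and the summits of TAZ4SA and YAP5SA were within 100 bp in 7. Ranking by the smaller summit −log10 p in place of the smaller area kept only 2 of the 10.

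At its lower edge the class depended on single bases. At chr13:100835972-100836177 the areas were 25.9 with TAZ4SA and 33.9 with YAP5SA. An EV peak lay 1 bp away, with 1 uncovered base between it and the site. The same gap of 1 bp to an EV peak was found at chr5:1226298-1226472, with areas of 68.7 and 28.3, and at chr13:61784281-61784629 the gap was 3 bp, with areas of 20.3 and 68.4. These sites were kept although EV chromatin was called open directly beside them. Just outside the class, chr11:134358856-134359098 was left out for an EV peak of area 21.6 that overlapped by 2 bp. At chr13:99532993-99533215 a CAMTA1 peak of area 23.6 overlapped by 2 bp, and at chr5:1261161-1261505 one of area 49.5 overlapped by 5 bp.

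Distances to the 5 other lists were taken for all the sites, without the same values for other classes. For scale, all merged sites lay a median of 222 bp from the next merged site of any kind, which is a different measure. The nearest peak of any of the 5 other lists lay at a median of 1326 bp (1188 to 1450), with quartiles of 302.5 and 5718 bp. It lay within 1 kb in 45.6% of the sites (43.9 to 47.2) and within 100 bp in 200 of them. At the other end, 646 sites (17.6%) had no such peak within 10 kb and 45 (1.22%) had none within 100 kb. CAMTA1 was the nearest list most often, in 33.4% of sites, followed by YAP-TFE3 in 28.0%, TAZ-CAMTA1 in 22.9%, EV in 16.2% and TFE3 in 3.27%. Lists tied for the smallest distance were each counted, so these shares overlap. The median distance was 2715 bp to a CAMTA1 peak, 2966 bp to YAP-TFE3, 3409 bp to TAZ-CAMTA1, 4288 bp to EV and 6112 bp to TFE3. The order follows the lengths of the lists only in part, since TAZ-CAMTA1 had the longest list, and EV chromatin was open within 1 kb of 24.4% of the sites.

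The neighbouring sites were often ones that a single activated protein had. For 26.6% of the sites the nearest merged site was YAP5SA-only, compared with 9.77% when the same was asked of all merged sites. It was TAZ4SA-only for 10.3%, compared with 4.17%. It was of the same class for 9.90%, and for the 11730 sites of the fusions alone the like share was 6.43%. The sites were picked for peaks of TAZ4SA and YAP5SA without the other lists, so such neighbours may be partly built in. A site with an EV peak was the nearest for 23.4% of them, compared with 35.6% for all merged sites, and a site of all 7 lists for 11.0%, compared with 17.1%.

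The distance to the other lists grew with strength. The sites were divided into 4 bins of nearly equal size by the smaller area, with limits of 27.9, 42.2 and 77.5. From the weakest to the strongest bin, the median distance to a peak of another list was 719, 961, 1334 and 2895 bp. The interval was 570 to 900 in the weakest bin and 2442 to 3397 in the strongest. The bins use the areas of the peaks that chose the sites, and no other class was binned beside them. A peak of another list within 1 kb was found for 55.0%, 50.7%, 46.6% and 29.9% of the sites. Median width rose from 152 through 184 and 228 to 349 bp over the bins, which is partly built in, since an area sums over the width. The log2 ratio of YAP5SA to TAZ4SA area was 0.70, 0.66, 0.85 and 1.11, so the strongest bin was the one closest to the ratio of all sites with both peaks. The distance between the summits showed no such trend, at 31, 36, 35 and 33 bp.

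The sites were spread unevenly over the chromosomes. Chromosome 5 held 559 of them, 15.2% (14.1 to 16.4), where 10.7% of all merged sites lay. Chromosome 13 held 258, or 7.02% (6.24 to 7.89), against 3.97%, and chromosome 4 held 175, or 4.76%, against 3.32%. The ratio of the 2 shares was highest on chromosome Y, at 4.22, but from 11 sites (0.299%, interval 0.167 to 0.535, against 0.0709%), and unplaced contigs held another 11, with a ratio of 2.00. At the low end, chromosome 22 held 19 sites, 0.517% against 1.68%, chromosome 19 held 32, 0.871% against 2.63%, and chromosome 17 held 49, 1.33% against 3.56%. Shares above those of all merged sites were also found in other classes, on chromosomes 5 and 13 without an EV peak and on chromosome 5 with one. TAZ4SA-only sites had 21.7% on chromosome 5 and 9.33% on chromosome 13, and YAP5SA-only sites had 13.7% and 5.11%. Among the 21 pairs of lists, the chromosome 5 share was highest for sites of EV and TAZ4SA only, at 30.0%, followed by EV and YAP5SA only, at 25.6%, and the TAZ4SA and YAP5SA sites ranked 9th. The number of copies of each chromosome in these cells was not measured here, and its part in these shares was not tested.

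The high shares of chromosomes 5 and 13 came from the weaker sites. In the strongest bin chromosome 5 held 10.01% (8.23 to 12.1), close to its share of all merged sites, against 16.9% of the other 3 bins. Chromosome 13 held 3.26% of the strongest bin and 8.27% of the others. Chromosome 18 went the other way, with 4.13% of the strongest bin and 2.21% of the others, where 1.61% of all merged sites lay. Its excess rested largely on 1 run of sites: 32 of its 99 sites lay in that run, and with the 5 longest runs left out its share fell from 2.69% to 1.88% (1.49 to 2.38). Chromosome 5 held 14.2% and chromosome 13 held 6.89% without those runs.

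**Figure D3:**
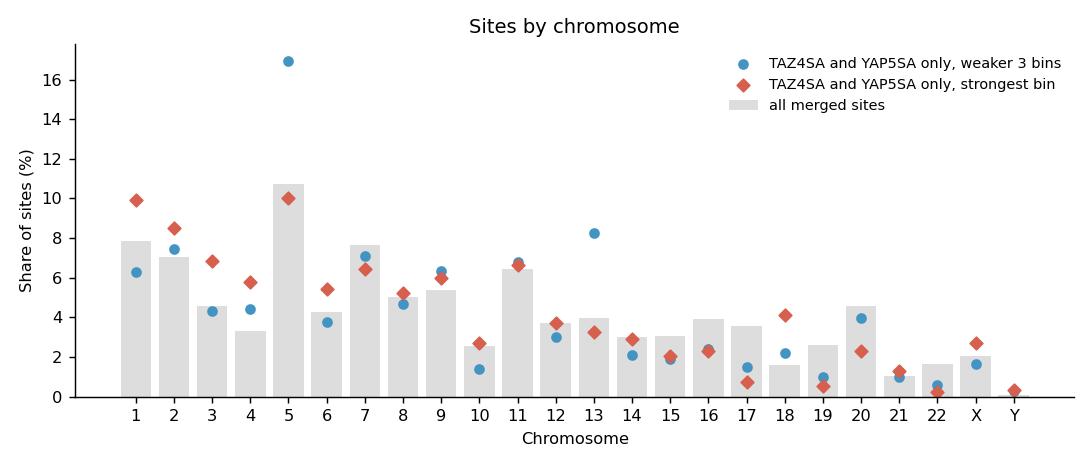
Percentage of sites on each chromosome among all 372133 merged sites (bars), the strongest bin of the TAZ4SA and YAP5SA sites by smaller area (red diamonds) and the other 3 bins (blue points). On chromosomes 5 and 13 the blue points stand above the bars, at 16.9% and 8.27%, and the red diamonds do not, at 10.01% and 3.26%.

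In total 1571 of the 3675 sites, 42.7% (41.2 to 44.4), lay within 50 kb of another site of the class, and 22.6% lay within 10 kb. The median distance to the next was 84860 bp. This closeness was not particular to the class, as the share was 58.3% for the 11730 sites of the fusions alone, and larger classes lie closer by their number. Chained at 50 kb, the sites formed 584 runs of 2 or more and 2104 single sites. The 28 runs of at least 5 sites held 263 sites, and the 5 longest held 117, which is 3.18%.

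The 5 longest runs were of 2 kinds. The longest, at chr5:165817178-166207581, held 39 of the sites among 446 merged sites over 390 kb, and it was a region rich in peaks with other vectors too. It held 362 TAZ4SA and 331 YAP5SA peaks beside 279 EV, 191 CAMTA1, 127 YAP-TFE3, 99 TAZ-CAMTA1 and 45 TFE3 peaks. The fourth run, at chr5:165534927-165730311, lay just before it and had the same character, with 15 sites among 260 and with 245 TAZ4SA, 249 YAP5SA and 235 EV peaks. The fifth, at chr13:105706527-105967096, had 13 sites among 196, with 90 TAZ4SA, 87 YAP5SA and 84 EV peaks. None of its sites was in the strongest bin, and 4 of 39 and 3 of 15 were in the runs on chromosome 5.

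The runs on chromosomes 18 and 1 were different, in that few peaks of EV or of TAZ-CAMTA1 were called there. All 5 runs were picked for their number of sites without a peak of the other lists. Counts of those lists below the counts of TAZ4SA and YAP5SA are therefore partly built in. The run at chr18:76490046-76734871 held 32 of the sites among 156 merged sites over 245 kb, together with 51 TAZ4SA-only and 40 YAP5SA-only sites. It contained 130 TAZ4SA and 105 YAP5SA peaks, against 37 YAP-TFE3, 34 CAMTA1, 23 EV, 9 TFE3 and 3 TAZ-CAMTA1 peaks. A single site of the run held all 7 lists. The peaks covered 30331 bp in the TAZ4SA list and 36040 bp in the YAP5SA list, with median areas of 76.6 and 126, whereas the EV peaks covered 2848 bp with a median area of 40.8 and the TAZ-CAMTA1 peaks 290 bp with a median area of 55.8. The strongest of all the sites lay in this run, and 14 of its 32 sites belonged to the strongest bin. In the run at chr1:240203633-240301149, 18 of 87 merged sites over 97.5 kb belonged to the class and 8 of the 18 were in the strongest bin. It held 66 TAZ4SA and 56 YAP5SA peaks, against 20 CAMTA1, 6 YAP-TFE3, 5 EV, 5 TFE3 and 4 TAZ-CAMTA1 peaks.

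**Figure D4:**
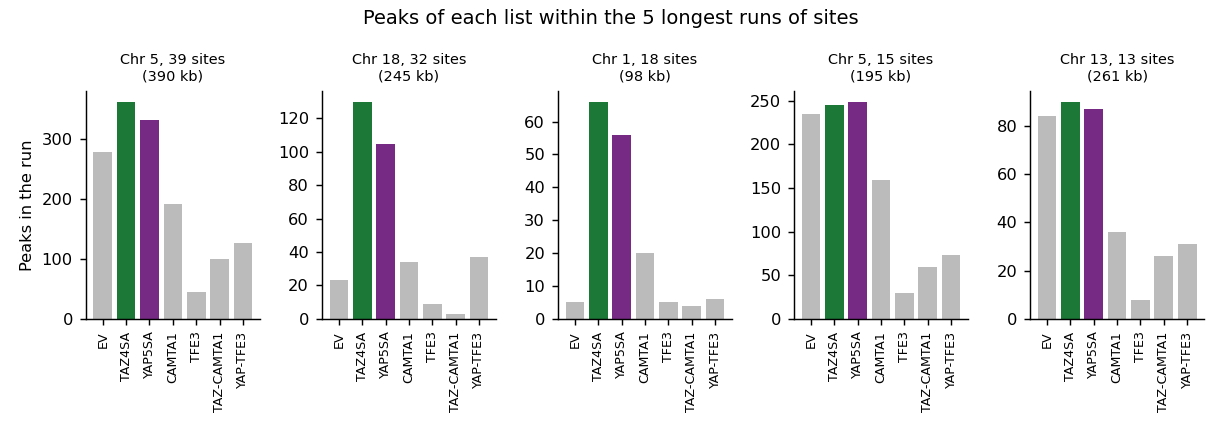
Number of peaks of each list within the 5 longest runs of sites, with TAZ4SA in green, YAP5SA in purple and the other 5 lists in grey, each panel on its own vertical axis from 0. In the runs on chromosomes 5 and 13 the EV bar is near the coloured bars, and in those on chromosomes 18 and 1 it is far below them, at 23 against 130 and 105 peaks and at 5 against 66 and 56.

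Around the chromosome 18 run, most lists had fewer peaks than inside it. In the 100 kb on each side of it the lists held 7 EV, 8 TAZ-CAMTA1, 10 CAMTA1, 14 YAP-TFE3 and 4 TFE3 peaks beside 35 TAZ4SA and 20 YAP5SA peaks. TAZ-CAMTA1 was the one list with more peaks in the flanks than in the run between them. The run, unlike its flanks, was picked for sites that hold no TAZ-CAMTA1 peak. The map of the run shows strong peaks of all 7 lists beyond its right end. Within the run the TAZ4SA and YAP5SA peaks were spread from end to end. Most EV and CAMTA1 peaks lay in its middle part, on either side of the strongest site.

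**Figure D5:**
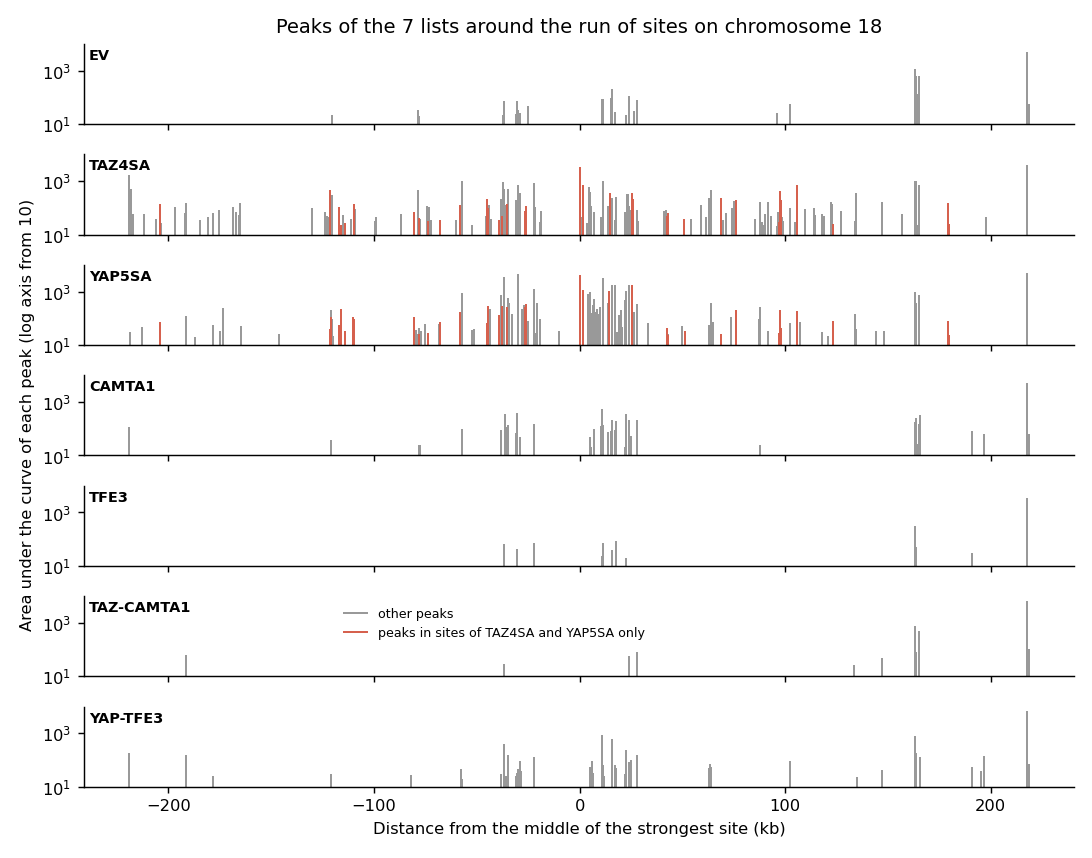
Peaks of the 7 lists around the chromosome 18 run, placed by their distance in kb from the middle of the strongest site, with the height of each line giving its area under the curve on a log axis from 10 and peaks in sites of TAZ4SA and YAP5SA only in red. TAZ4SA (130 peaks) and YAP5SA (105 peaks) fill the run, while EV (23) and TAZ-CAMTA1 (3) have few peaks there and strong ones to its right.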

How the data were processed

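ATAC-seq was performed on 20 SW872 libraries of 7 vectors. Per the study's methods, the authors trimmed reads with NGmerge, aligned them with BWA-MEM to GRCh37/hg19, and called peaks with Genrich in ATAC-seq mode after removing PCR duplicates, blacklisted regions, mitochondrial DNA and certain contigs. The submitters' processing notes instead name Bowtie 0.12.2 and the mouse build mm8. The lists reach base 249240671 of chromosome 1 and carry human chromosomes, so hg19 was used. The methods state that peaks were called on every replicate separately, whereas each vector has 1 deposited list. How its libraries were combined is not given in the sources used here, so it is unknown whether an area or p belongs to one library or to several. In each list the authors deposited an area under the curve (a signal value), the −log10 p of the summit, its position, and a −log10 q and a score, which were not used.

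Peaks were merged where they shared at least 1 bp (Python 3.11.15, pandas 2.3.3). With bedtools 2.31.1 the numbers of merged sites and of TAZ4SA and YAP5SA only sites were the same. The largest peak by area stood for each list in a site. Coordinates are 1-based. Shares have 95% Wilson intervals and medians have 95% binomial intervals (scipy 1.17.1), which cover counting error only. Distances to other peaks were taken between the nearest edges. Simulated peaks with known overlaps were recovered before use. No test was made, as no list has a replicate. The 10 sites with the largest smaller area, the 5 runs with most sites and the 3 sites nearest to each side of the rule were named. The members and lists were chosen with earlier results of these data known. Stricter summits, equal list lengths, other overlaps, summit windows and leaving out single lists were tried as alternatives.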

Additional observations from a re-analysis of the deposited data

How the results depend on the processing

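The number of sites, 3675, stayed within 1.5 times when peaks needed a summit −log10 p of 4, when all lists were cut to 152702 peaks by summit or by area, with windows of 250 bp on each side of the summits, on autosomes only, with touching peaks merged and without the sites of the 5 longest runs (the last 2 chosen after seeing the data), between 3558 and 3919, and between 3730 and 4840 when 1 of the 5 other lists was not read. It was 1885 at a summit −log10 p of 5, 1956 with a required overlap of 50% of both peaks, and 2001 with no other peak within 1 kb. A similar number was not the same sites: 63.2% of the 3675 were overlapped at a −log10 p of 4 and 14.6% at 5, and 64.1%, 63.6% and 70.7% with equal lists by summit, equal lists by area and windows. The median width, 224 bp, was 271 and 421 bp at a −log10 p of 4 and 5, 276 and 283 bp with equal lists by summit and area, 165 bp with the 50% overlap, 636 bp with windows and 251 bp with no other peak within 1 kb. The share within 50 kb of another site, 42.7%, was 38.3% and 28.0%, 38.9% and 38.6%, 29.4%, 33.2% and 34.1% in the same order, and 40.9% without the 5 longest runs. The peak strengths moved more: the median YAP5SA area, 99.9, was 182 and 542 at a −log10 p of 4 and 5 and 212 and 213 with equal lists by summit and area, and 159 with no other peak within 1 kb, and the median TAZ4SA area, 53.7, was 221 at a −log10 p of 5. The share within 1 kb of another list, 45.6%, was 22.6% at a −log10 p of 5. Both a smaller number of sites and the removal of clustered sites lower the share within 50 kb by construction. No paired analysis was possible because no list separates its libraries, and for the same reason no library could be left out. A search for motifs in the sites was planned and not run, for want of a genome of the build.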
